A study of Mus musculus with 8 samples.

Results

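The interleukin 1 (IL-1) and interleukin 6 (IL-6) genes of skin were followed as 9 genes out of the 31053 listed in the count files, each taken by its symbol alone: the IL-1 ligands Il1a and Il1b, the receptor antagonist Il1rn, the signalling receptor Il1r1, the decoy receptor Il1r2, the ligand Il18, the cytokine Il6, its receptor Il6ra and the pentraxin Ptx3. All 9 were detected in the cells that passed the cell filter, in between 23 cells (Il1a) and 1658 cells (Il6ra) of 6150. The data are 8 single-cell RNA-seq (scRNAseq) libraries of dorsal skin from female BALB/c mice, with an age of 14-16 weeks in the labels. In 4 libraries the skin had been injected with PBMCsec, the factors that peripheral blood mononuclear cells release after irradiation, and in 4 with vehicle. The labels give each library a treatment and a number from 1 to 4, but no wound, time point or control solution. The study's methods describe injection of scars left by excision wounds, salt solution and cell culture medium as controls, and analysis of some mice directly after treatment and of others later. These cannot be told apart within the groups. The mice carried no engineered allele according to these sources.

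IL-1α and IL-1β bind the receptor encoded by Il1r1, which signals through MyD88 and NF-κB and turns on chemokines, Il6 and Ptx3. The antagonist of Il1rn occupies the same receptor without a signal, and the decoy of Il1r2 binds the ligands but lacks the signalling domain. IL-1β and IL-18 are made as precursors that caspase-1 of the inflammasome cleaves, so an mRNA level says nothing about released cytokine. IL-6 binds the receptor of Il6ra and then signals through gp130, JAK kinases and STAT3. PTX3 is a soluble pattern recognition protein that stromal and myeloid cells release in inflammation. In skin, keratinocytes are known as a store of IL-1α, and neutrophils and macrophages as sources of IL-1β.

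Libraries held between 14753926 and 37880651 deposited UMIs (unique molecular identifiers, each standing for 1 counted mRNA molecule). Between 10.2% and 32.9% of barcodes per library passed the filter, and most of the others exceeded the limit of 5.0% mitochondrial counts. Between 151 and 1659 cells per library were kept, with a median of 6156 to 9521 UMIs per cell. Of the barcodes kept, 4 sequences were kept in more than 1 library. Clustering gave 35 clusters, of which 32 were named from marker genes, and neither the 9 genes nor their pathway lists entered it. The named classes included 1409 fibroblasts (FBs), 1395 keratinocytes (KCs), 805 hair follicular cells (HFs), 749 T cells (TCs) and 235 dendritic cells (DCs). There were also 160 macrophages, 124 Langerhans cells, 117 neutrophils and 110 type 2 innate lymphoid cells (ILC2). Smaller classes were 83 endothelial cells (ECs), 38 smooth muscle cells and pericytes (SMCs/PCs) and 29 mast cells and basophils. Levels below are given as CPM, the UMIs of a gene per 1000000 UMIs of all genes in the same cells. Intervals on shares of cells are 95% exact binomial (Clopper-Pearson) intervals, and they cover counting error only. Where a class held no UMI of a gene, the upper limit given is instead 3 cells over the cells of the class.

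The genes lie on 5 chromosomes of GRCm38, and several are neighbours. Il1r2 (chr1:40074079-40125231) and Il1r1 (chr1:40225080-40317257) follow each other on the plus strand of chromosome 1. Il1a (chr2:129299610-129309972) and Il1b (chr2:129364570-129371139) follow each other on the minus strand of chromosome 2, where Il1rn (chr2:24336853-24351494) also lies. Ptx3 (chr3:66219910-66225805, plus) and Il6ra (chr3:89864059-89913196, minus) are on chromosome 3, Il6 (chr5:30013114-30019981, plus) on chromosome 5 and Il18 (chr9:50554827-50581840, plus) on chromosome 9. These positions cover whole genes with exons and introns.

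The promoters of Il6 and Ptx3 are shown because these genes shared a source cell below. Each is the stretch of 250 bases before the RefSeq start (GRCm38.p6), on the plus strand, chr5:30012864-30013113 for Il6 and chr3:66219637-66219886 for Ptx3. Capitals mark matches to 3 motifs searched on both strands, the NF-κB consensus, the C/EBP-type pattern TTGNNCAA and the AP-1-type pattern TGANTCA.
Il6: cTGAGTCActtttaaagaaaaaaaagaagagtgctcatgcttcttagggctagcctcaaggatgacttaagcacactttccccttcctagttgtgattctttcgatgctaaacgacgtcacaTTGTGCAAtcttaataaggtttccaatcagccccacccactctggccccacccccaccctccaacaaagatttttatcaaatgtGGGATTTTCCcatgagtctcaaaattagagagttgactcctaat
Ptx3: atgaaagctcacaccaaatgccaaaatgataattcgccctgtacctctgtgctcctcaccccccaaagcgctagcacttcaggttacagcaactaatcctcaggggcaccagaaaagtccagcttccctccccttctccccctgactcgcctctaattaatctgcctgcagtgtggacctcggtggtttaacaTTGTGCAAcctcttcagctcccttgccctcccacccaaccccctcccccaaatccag
The Il6 window held all 3 motifs, AP-1 at 249, C/EBP at 128 and NF-κB at 44 bases before the start. The Ptx3 window held a C/EBP-type match at 57 bases and neither of the others. The matches do not overlap. Over all 32851 promoter windows of the same length, 7.25% held the NF-κB consensus, 5.65% TTGNNCAA and 6.75% TGANTCA, so each match alone is not rare. Among the other 7 genes, TGANTCA was found at 12 bases before the start of Il1a and at 141 bases before 1 of 3 starts of Il1rn, and the NF-κB consensus at 232 bases before the second of 2 starts of Il1r1. None of the 3 was found in the windows of Il1b, Il1r2, Il18 and Il6ra. A match is a run of letters and was not tested as a binding site.

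**Figure D1:**
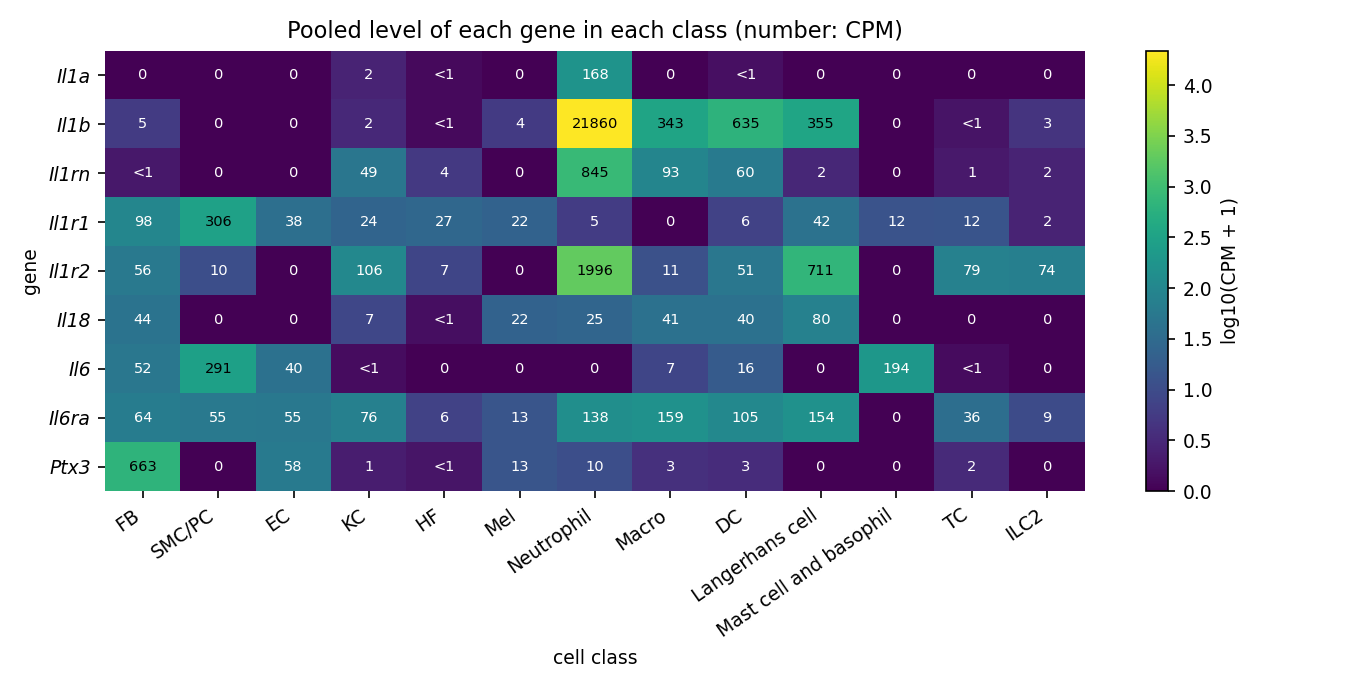
Heat map of the level of the 9 genes (vertical axis) in 13 cell classes (horizontal axis), as CPM pooled over the 8 libraries, with the colour on a log10(CPM + 1) scale. Il1b reached 21860 CPM in neutrophils, Ptx3 663 CPM in FBs and Il1r1 306 CPM in SMCs/PCs, and colours are to be compared along a row, since UMI levels of different genes were not put on a common scale.

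The 9 genes were spread unevenly over the cell classes, and several shared a class. Il1b had its highest level in neutrophils and a lower level in DCs, Langerhans cells and macrophages. Il1r1 was highest in SMCs/PCs and FBs, and Ptx3 was found almost wholly in FBs. Il1rn was spread over neutrophils, macrophages, DCs and KCs. The comparison across cell types asks which cells carry the ligands and which carry the receptors.

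Among the ligands, Il1a was hardly detected. It had 63 UMIs in 23 cells (0.374% of cells). Neutrophils held 34 of these UMIs, but 27 of them came from 1 cell of PBMCsec library 2. KCs held 26 UMIs in 15 cells, 1.75 CPM, and FBs, TCs and macrophages held none. Within KCs the level was highest in cluster 25, which is marked by Krt79 of the upper hair follicle, with 11.07 CPM. At these counts no order of classes can be given for Il1a, and it passed the count filter of no test.

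Il1b had 6462 UMIs in 330 cells. All 117 neutrophils held at least 1 UMI, and these cells carried 68.5% of the Il1b UMIs of the data set. Of their 4425 UMIs, 1656 came from PBMCsec library 2. With libraries weighted equally the neutrophil share was 61.3 ± 27.1% (SD, n = 8 libraries). In PBMCsec libraries 1 and 3 and vehicle libraries 3 and 4, DCs, Langerhans cells and macrophages together held more Il1b UMIs than neutrophils. Their counts were 581, 503, 267 and 141 UMIs against 452, 265, 153 and 98. In the other libraries neutrophils held more. Neutrophil levels were 9565, 24400, 26310 and 30970 CPM in PBMCsec libraries 1 to 4 and 19100, 26140, 23020 and 18750 CPM in vehicle libraries 1 to 4. The groups overlapped, and the lowest library, PBMCsec 1, held 20 neutrophils. The level was 635 CPM in DCs, where 35.3% of cells held a UMI, 355 CPM in Langerhans cells and 343 CPM in macrophages. In TCs, which are not known to express the gene, 0.267% of cells held an Il1b UMI, at a median of 3313 UMIs per cell against 1531 in neutrophils and 8379 in DCs. FBs had 59 Il1b UMIs in 11 cells and KCs 32 UMIs in 29 cells, that is 4.79 and 2.15 CPM.

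For differences between classes, edgeR's quasi-likelihood test was run with the library as a block, over 5 classes (FBs, KCs, TCs, DCs with Langerhans cells and macrophages as 1 class, and neutrophils). This fit was chosen after the data had been seen. Neutrophils entered it from every library, with a lower limit of 3 cells. They numbered 20, 35, 8 and 25 in PBMCsec libraries 1 to 4 and 5, 15, 6 and 3 in vehicle libraries 1 to 4. Of 7135 genes tested, 46.4% were called between DCs and macrophages and neutrophils and 65.3% between FBs and DCs and macrophages, so that a difference between classes was the rule for any gene. Il1b was lower in DCs and macrophages than in neutrophils by a log2 fold change of -5.23 (SE 0.436, adjusted p = 3.996e-13 by edgeR). It was lower in FBs than in DCs and macrophages by a log2 fold change of -6.25. Leading clusters within the DC class were uneven, with 742.9 CPM in cluster 16.

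Il1rn, the antagonist, had 1225 UMIs in 669 cells. Its level per UMI was highest in neutrophils, at 845 CPM pooled, yet KCs held 59.8% of its UMIs, with 1395 cells at a median of 10720 UMIs against 117 neutrophils at 1531. A total of 33.4% of KCs held a UMI, at 49.3 CPM pooled. Below, values by library of single genes in FBs, KCs, TCs, DCs and macrophages or all cells were scaled between libraries by the TMM method. Levels within a single cluster, summed levels of several genes and levels that include barcodes outside the cell filter were not. Levels in KCs were 59.8, 85.8, 55.3 and 41.4 CPM in PBMCsec libraries 1 to 4 and 34.8, 55.8, 41.3 and 51.3 CPM in vehicle libraries 1 to 4. KCs thus expressed the antagonist in every library, with a mean of 52.0 ± 12.4 CPM (SD, n = 8 libraries, scaled to the library total). Macrophages had 93.25 CPM and DCs 59.7 CPM, while in FBs 0.639% of cells held a UMI. Of the 117 Il1rn UMIs of DCs, 44 lay in cluster 16, at 29.3 CPM. The others lay in cluster 29, a group of 56 cells with 8 DC and 3 macrophage markers, led by Lyz1 and Retnla. The neutrophil levels ranged from 0 CPM in vehicle library 3, with 6 neutrophils, to 2870 CPM in vehicle library 4, with 3. In the edgeR fit, in which 65.6% of genes were called between KCs and DCs and macrophages, Il1rn differed by 0.29 (log2, adjusted p = 0.372 by edgeR), which is no call. It was lower in FBs than in KCs by a log2 fold change of -5.67.

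Il1r1, the receptor that signals, was highest in SMCs/PCs and FBs. It had 2218 UMIs in 1397 cells, and FBs held 54.4% of the UMIs, with a UMI in 45.0% of cells (interval 42.4% to 47.6%). Levels in FBs were 152, 92.4, 97.2 and 75.9 CPM in PBMCsec libraries 1 to 4 and 70.4, 72.0, 92.2 and 86.3 CPM in vehicle libraries 1 to 4. The highest library was PBMCsec 1, and the others lay close together. SMCs/PCs had 306 CPM and a UMI in 65.8% of their 38 cells (interval 48.6% to 80.4%), but vehicle libraries 1 and 2 held no such cell. ECs had 38.2 CPM, with 97.4 CPM in the blood vessel cluster 33 and 0 UMIs in the lymphatic cluster 31. No Il1r1 UMI was found in 160 macrophages, which allows a share of up to 1.88% of cells with a UMI. TCs had 12.3 CPM, with 73.0 CPM in cluster 26, which is marked by Trdc and Blk of γδ T cells. Il1r1 was higher in FBs than in KCs by a log2 fold change of 1.92 (adjusted p = 3.792e-11 by edgeR), than in TCs by 3.29, than in DCs and macrophages by 2.88 and than in neutrophils by 4.59. The same 4 fits called 68.6%, 66.3%, 65.3% and 63.7% of all genes.

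The decoy receptor Il1r2 led in other classes than Il1r1, although both were found in KCs, Langerhans cells and FBs. Of the 334 FBs with an Il1r2 UMI, 54.8% also held an Il1r1 UMI. Il1r2 had 3924 UMIs in 1193 cells. Neutrophils had 1996 CPM (75.2% of cells with a UMI), Langerhans cells 711 CPM, KCs 106 CPM, TCs 79.0 CPM, ILC2 74.2 CPM, FBs 56.4 CPM and DCs 51.0 CPM. ECs and mast cells held no UMI. KCs carried 39.9% of all Il1r2 UMIs, and their cluster 3 had 293.5 CPM. Within TCs the level was 244.6 CPM in cluster 12, marked by Ctla4 and Icos of activated and regulatory T cells, and within FBs it was 206.6 CPM in cluster 20. Il1r2 was lower in DCs and macrophages than in neutrophils (log2 fold change of -2.75, adjusted p = 3.601e-08 by edgeR) and lower in FBs than in KCs (-1.04, adjusted p = 0.00493 by edgeR). KCs exceeded TCs by 1.12 (adjusted p = 0.0061 by edgeR, with 66.8% of genes called), whereas KCs against DCs and macrophages gave -0.62 (adjusted p = 0.0919 by edgeR), which is no call.

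Il18 had 877 UMIs in 592 cells and was at home in FBs and in antigen-presenting cells. FBs held 61.6% of its UMIs at 43.8 CPM, with 94.1 CPM in their cluster 8. Langerhans cells had 79.6 CPM, macrophages 40.7 CPM and DCs 40.3 CPM. KCs had 7.40 CPM, with 56.2 CPM in the Krt79 cluster 25. TCs held 0 UMIs in 749 cells, which allows a share of up to 0.401%. Il18 was higher in FBs than in KCs by a log2 fold change of 2.43 (adjusted p = 1.109e-09 by edgeR). Between FBs and DCs and macrophages it differed by -0.39 (adjusted p = 0.166 by edgeR), which is no call.

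Il6 was rare and uneven. It had 793 UMIs in 142 cells, or 2.31% of cells, and 1 cell alone held 91 UMIs. With the libraries pooled, FBs held 81.3% of the UMIs in 101 cells (7.17% of FBs, interval 5.88% to 8.64%), at 52.3 CPM. Of these 645 UMIs, 338 and 264 came from PBMCsec libraries 1 and 3. With libraries weighted equally the FB share was 52.4 ± 34.2% (SD, n = 8 libraries). In KCs, 0.358% of cells (interval 0.116% to 0.834%) held an Il6 UMI, although their median depth was 10720 UMIs against 9022 in FBs. Mast cells and basophils had 194 CPM, with a UMI in 7 of 29 cells (24.1%, interval 10.3% to 43.5%). SMCs/PCs had 291 CPM, from 58 UMIs in only 4 cells. ECs had 40.0 CPM, DCs 16.3 CPM, and the other classes few or no UMIs. Of the 32 Il6 UMIs of DCs, 2 lay in cluster 16 and the others in cluster 29. Il6 had too few UMIs to enter the fit between classes.

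Il6ra was the most widely spread of the 9 genes, with a UMI in 27.0% of cells. Macrophages had 159 CPM, Langerhans cells 154 CPM, neutrophils 138 CPM, DCs 105 CPM, KCs 76.1 CPM, FBs 64.5 CPM and TCs 36.0 CPM. KCs held 39.9% of its UMIs and FBs 28.1%. Mast cells held none in 29 cells, which allows a share of up to 10.3%. Il6ra was lower in FBs than in DCs and macrophages (log2 fold change of -1.04, adjusted p = 5.164e-06 by edgeR) and lower in KCs than in these (-0.78, adjusted p = 0.000267 by edgeR). FBs and KCs differed by -0.25 (adjusted p = 0.21 by edgeR), which is no call.

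Ptx3 was an FB transcript. FBs held 8176 of 8259 UMIs (99.0%), with a UMI in 31.7% of cells (interval 29.3% to 34.2%) and 663 CPM. In TCs 0.935% of cells held a UMI. ECs had 58.2 CPM, and 95.8 CPM in their lymphatic cluster. Ptx3 was higher in FBs than in KCs by a log2 fold change of 8.40 (adjusted p = 4.583e-27 by edgeR), than in TCs by 8.12, than in DCs and macrophages by 8.22 and than in neutrophils by 6.14. The other pairs of classes were not called, with adjusted p between 0.115 and 0.965 by edgeR, in fits that called, for TCs for instance, 50.2% of genes against DCs and macrophages and 47.0% against neutrophils.

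The order of classes was also examined between classes adjacent in mean level, compared by exact sign-flip permutation tests over the libraries that held at least 10 cells of both, which called none of 52 pairs (lowest adjusted p = 0.1624). The smallest p such a test can give is 0.0078 with 8 libraries, 0.01562 with 7 and 0.03125 with 6, and most pairs rested on 6 or 7. After adjustment over 52 pairs a call was hardly possible in this design, so the lack of calls says nothing about whether neighbouring classes differ.

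FBs that held Il6 often held Ptx3 as well. Of the 101 FBs with an Il6 UMI, 77 (76.2%) had a Ptx3 UMI, against 28.3% of FBs without Il6. A UMI of the receptor Il1r1 was found in 68.3% of the Il6-positive FBs. In KCs, cells with Il1r2 carried Il6ra in 66.6% against 29.4% of the others, cells with Il1rn carried Il6ra in 60.3% against 32.8%, and cells with Il1rn carried Il1r2 in 52.6% against 24.5%. Cells with more UMIs are more likely to show any gene, so these shares are descriptions. The KC class also mixes clusters that differ in these genes. Its cluster 3 had 293.5 CPM of Il1r2 and 130.2 CPM of Il6ra. Clusters 10 and 17, which also carry the hair follicle markers Lhx2, Sox9 and Hoxc13, had 1.39 and 8.16 CPM of Il1r2 and 2.79 and 7.58 CPM of Il6ra.

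With the libraries pooled, both Il6 and Ptx3 were concentrated in FB cluster 19, a group of 131 FBs (9.3% of FBs). Its leading genes were Ptx3, Ccl2, Cxcl1, Ccl7, Has1 and Il6. Ccl2, Ccl7 and Cxcl1 encode chemokines for monocytes and neutrophils, and Has1 a hyaluronan synthase. The cluster held 401 of 645 Il6 UMIs of FBs (62.2%) and 6152 of 8176 Ptx3 UMIs (75.2%), that is 344.5 and 5285 CPM. Apart from Has1, these leading genes were kept out of the clustering, but genes that vary with them were not, so the levels describe the cluster. It also led FBs in Il1r1, with 179.6 CPM. It made up 12.2%, 3.03%, 15.3% and 6.47% of FBs in PBMCsec libraries 1 to 4 and 0%, 20.0%, 4.76% and 2.52% in vehicle libraries 1 to 4. The highest share stood in vehicle library 2, which had 20 FBs, and 58.0% of the cells of the cluster came from PBMCsec library 3. The pooled UMI shares rest mainly on PBMCsec libraries 1 and 3, with 227 and 163 Il6 UMIs and 2194 and 3387 Ptx3 UMIs in the cluster. Vehicle library 3 held 11 of its Il6 UMIs and the other libraries none. Its Ptx3 UMIs were 3 of 38 and 187 of 286 in PBMCsec libraries 2 and 4. They were 0 of 84, 22 of 74, 266 of 595 and 93 of 160 in vehicle libraries 1 to 4.

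**Figure D2:**
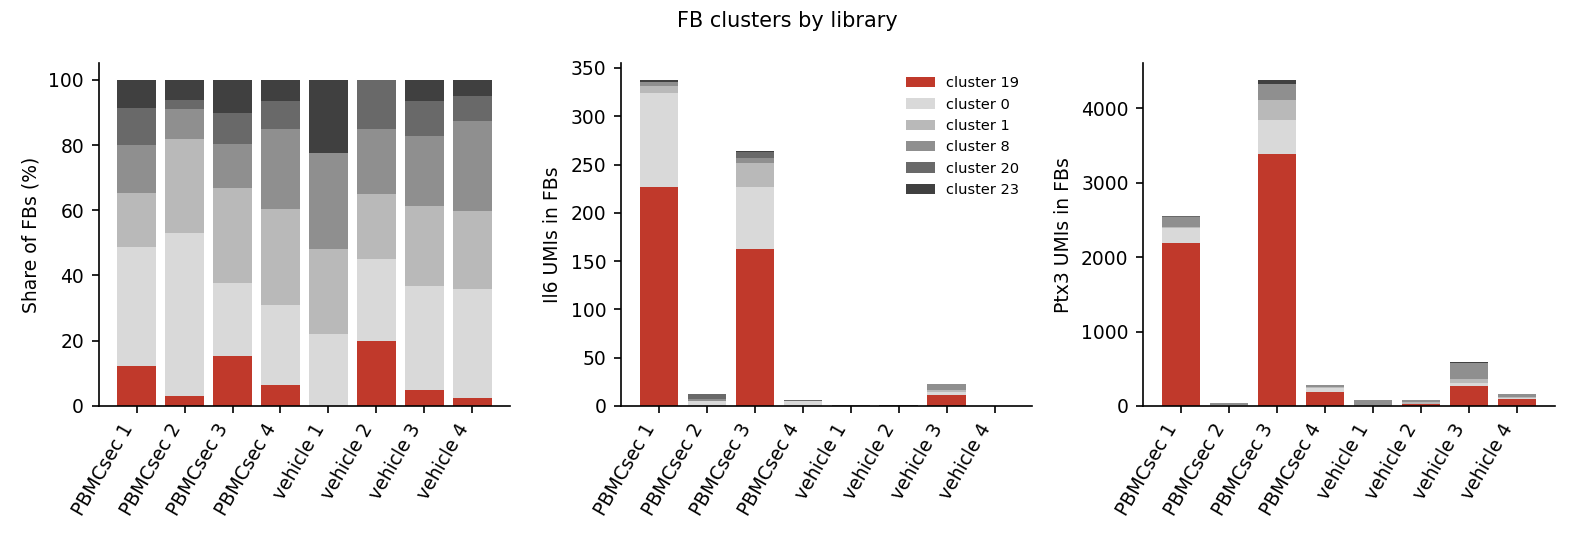
Stacked bars by FB cluster in each library (horizontal axis), with cluster 19 in red, of the share of FBs (left, percent), the number of Il6 UMIs in FBs (middle) and the number of Ptx3 UMIs in FBs (right). Most UMIs of both genes come from PBMCsec libraries 1 and 3. Cluster 19 held 9.3% of FBs but 62.2% of their Il6 UMIs and 75.2% of their Ptx3 UMIs.

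The comparison of PBMCsec with vehicle asks whether the injected secretome changed the level of these genes within a cell class. The test was edgeR's quasi-likelihood F test over all genes, on the UMI sum of a class in each library. No gene of any kind passed an adjusted p of 0.05. The percentage called was 0.00 in FBs (9185 genes tested), KCs (9134), TCs (4444), DCs and macrophages (5620) and all kept cells together (13182), while an unadjusted p under 0.05 was reached by 226, 127, 151, 262 and 335 genes, or 2.46%, 1.39%, 3.40%, 4.66% and 2.54%. DESeq2 called 10 genes in all kept cells, 3 in TCs and 6 in DCs and macrophages, none of them among the 9. None of the 9 genes was called in the edgeR fit in any class, and Il1a did not pass the count filter of any (without the filter, Il1a in KCs had a log2 fold change of 2.79 with an adjusted p of 0.9652 by edgeR). Every PBMCsec library lay above every vehicle library for 1 of the 26 pairs of gene and class tested, Il18 in KCs, and for none did every PBMCsec library lie below. Over all genes tested, the shares above and below were 1.10% and 0.690% in all kept cells, 0.991% and 0.871% in FBs, 0.624% and 0.810% in KCs, 1.19% and 1.17% in TCs and 1.46% and 1.16% in DCs and macrophages. In summed counts, fewer cells that express a gene and less RNA per cell cannot be told apart.

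**Figure D3:**
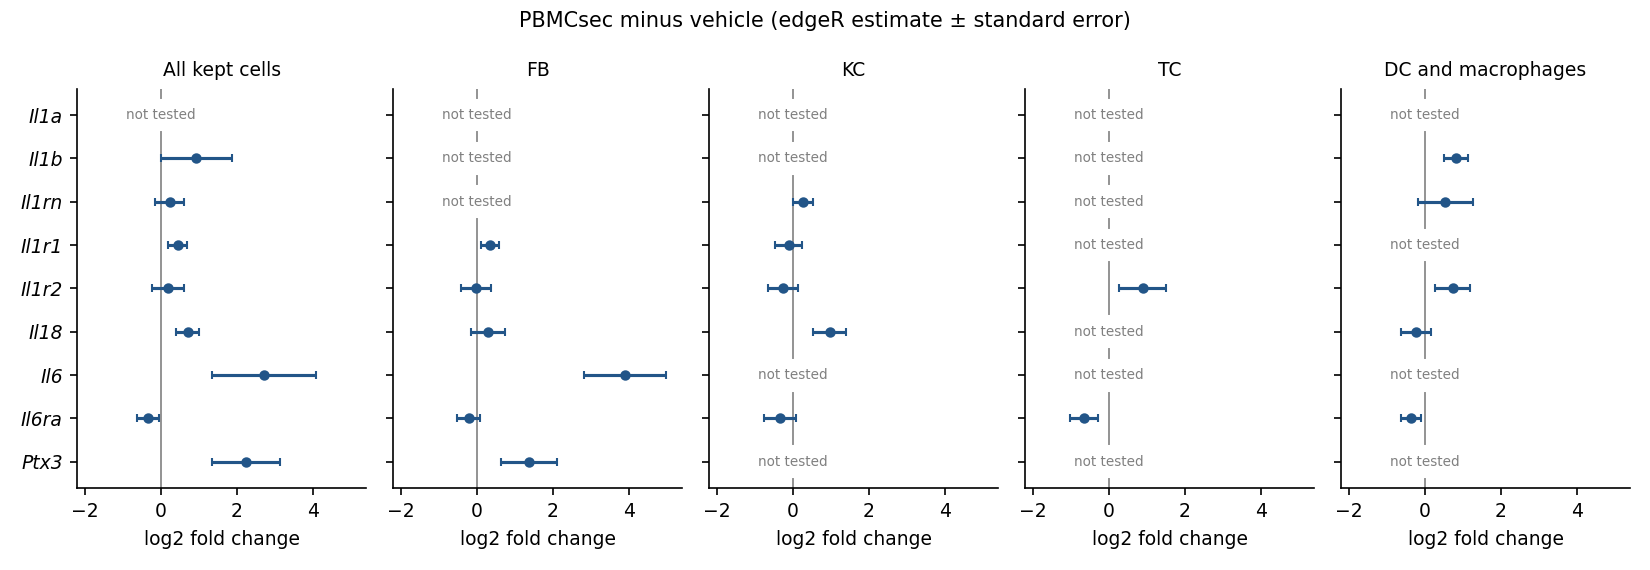
Log2 fold change of PBMCsec against vehicle (horizontal axis, edgeR, points with SE bars) for the 9 genes in FBs, KCs, TCs, DCs and macrophages and all kept cells. Il6 in FBs stood farthest from 0 among the class values at 3.90 (SE 1.08), with an adjusted p of 0.9999 by edgeR, and genes with too few UMIs are marked as not tested.

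Il6 in FBs had the largest fold change of the 9 genes. Its levels were 218, 20.5, 60.4 and 4.56 CPM in PBMCsec libraries 1 to 4 and 4.14, 6.55, 8.55 and 0 CPM in vehicle libraries 1 to 4. PBMCsec libraries 1 to 3 lay above every vehicle library and PBMCsec library 4 among them. The means were 75.9 ± 97.8 and 4.81 ± 3.68 CPM (SD, n = 4 each). The log2 fold change was 3.90 (SE 1.08, unadjusted p = 0.00317, adjusted p = 0.9999 by edgeR). An exact permutation test of log2(CPM + 10) gave p = 0.0857, where the smallest possible p is 0.0286. The counts behind it were small outside 2 libraries, with 338, 12, 264 and 6 UMIs in PBMCsec libraries 1 to 4 and 1, 1, 23 and 0 UMIs in vehicle libraries 1 to 4. A single cell held 26.9% of the UMIs of PBMCsec library 1. Without PBMCsec library 1 the fold change was 2.59, and without vehicle library 3 it was 5.87.

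Ptx3 in FBs had levels of 1648, 65.0, 1003 and 217 CPM in PBMCsec libraries 1 to 4 and 348, 485, 221 and 120 CPM in vehicle libraries 1 to 4. PBMCsec libraries 1 and 3 were the highest and PBMCsec library 2 the lowest of all, so the groups overlapped. Barcodes outside the cell filter were not classed, so this order holds for kept FBs only. The means were 733 ± 735 and 293.5 ± 158 CPM (SD, n = 4 each), with a log2 fold change of 1.38 (SE 0.735, unadjusted p = 0.0833, adjusted p = 0.9999 by edgeR). Without PBMCsec library 1 the log2 fold change was 0.62 (unadjusted p = 0.3901 by edgeR), and without PBMCsec library 2 it was 1.77. Within cluster 19 the Ptx3 level was 10730 CPM in PBMCsec library 1, 5061 CPM in PBMCsec library 3 and 2025 CPM in vehicle library 3, and the Il6 level was 1110, 243.6 and 83.75 CPM. In the FBs outside cluster 19, a choice made after the data had been seen, Ptx3 had 260, 61.85, 266.3 and 81.68 CPM against 348.4, 378.7, 129.6 and 52.3 CPM, a log2 fold change of -0.30 (unadjusted p = 0.6146, adjusted p = 0.9998 by edgeR), and Il6 had too few UMIs to be tested. Since cluster 19 is the cluster led by Ptx3 and comes mostly from PBMCsec library 3, leaving it out takes away high PBMCsec values by construction.

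**Figure D4:**
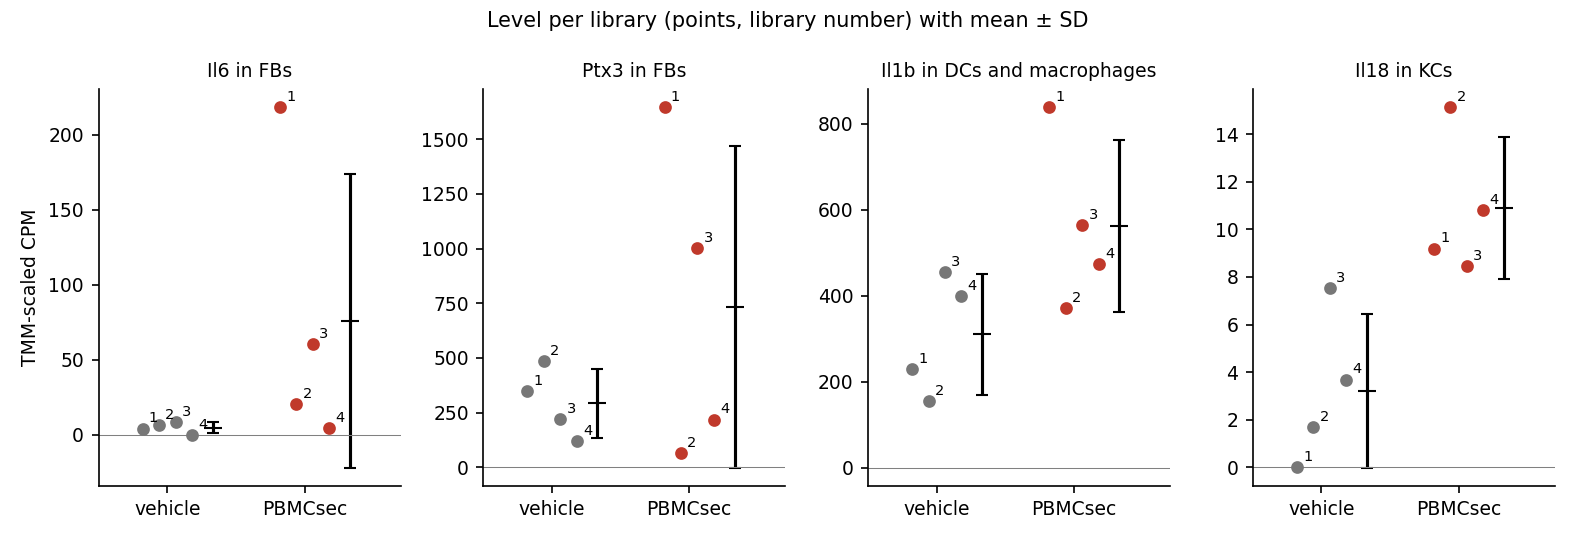
TMM-scaled CPM (vertical axis) of Il6 and Ptx3 in FBs, Il1b in DCs and macrophages and Il18 in KCs by treatment, with 1 point per library and the mean ± SD of 4 libraries. Il6 and Ptx3 of PBMCsec library 1, 218 and 1648 CPM, stand above all others, and in KCs the Il18 points of the groups do not overlap.

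The other genes measured in FBs moved little. Il1r1 gave a log2 fold change of 0.34, Il18 0.28, Il1r2 -0.02 and Il6ra -0.21, with an adjusted p of 0.9999 by edgeR for each. The share of FBs with an Il6 UMI was 8.85 ± 6.69% after PBMCsec and 2.99 ± 2.13% after vehicle (SD, n = 4 each; exact permutation p = 0.1714), and that with a Ptx3 UMI was 27.0 ± 11.3% and 36.6 ± 12.9% (exact permutation p = 0.3429). For Ptx3 the share of cells and the level thus pointed in opposite directions, neither beyond the spread between libraries. Of 33 comparisons of such shares over genes and classes, none passed the threshold, with or without thinning of each cell to 1000 UMIs.

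In KCs, Il18 was the gene that stood apart. Its levels were 9.20, 15.1, 8.44 and 10.8 CPM in PBMCsec libraries 1 to 4 and 0, 1.69, 7.52 and 3.69 CPM in vehicle libraries 1 to 4. Every PBMCsec library lay above every vehicle library, which held for 0.624% of the 9134 genes tested in KCs. The log2 fold change was 0.97 (unadjusted p = 0.0415, adjusted p = 0.9999 by edgeR). The exact permutation test of log2(CPM + 10) gave p = 0.02857, the smallest it can give, or 0.52 after adjustment over the 26 comparisons of genes and classes. These levels rest on 12, 3, 27 and 23 UMIs against 0, 1, 33 and 11 UMIs. A single cell held 43.5% of the UMIs of PBMCsec library 4, and cluster 25 held 66 of the 110 UMIs. By share of KCs with a UMI the groups overlapped, with 4.3% in PBMCsec library 4 and 4.88% in vehicle library 3. Il1rn gave 0.28, Il1r1 -0.11, Il1r2 -0.27 and Il6ra -0.34 on the log2 scale, none of them called. Il6ra had 94.3, 10.1, 94.1 and 46.1 CPM against 76.5, 125, 71.8 and 69.1 CPM, with overlapping groups.

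In DCs and macrophages, Il1b had levels of 839, 371, 564 and 473 CPM in PBMCsec libraries 1 to 4 and 229, 155, 455 and 400 CPM in vehicle libraries 1 to 4. PBMCsec library 2 lay below vehicle libraries 3 and 4, and the other 3 PBMCsec libraries lay above all vehicle libraries. The means were 562 ± 201 and 310 ± 141 CPM (SD, n = 4 each), with a log2 fold change of 0.82 (unadjusted p = 0.0224, adjusted p = 0.9998 by edgeR). Without the filter on low counts it was 0.87 with an adjusted p of 0.0444 by edgeR, the only call of any of the 9 genes under an alternative. That setting called 122 genes in this class, where the main fit called none, so the call is not particular to Il1b. The share of these cells with an Il1b UMI was 29.8 ± 7.62% and 29.8 ± 5.29% (SD, n = 4 each). A single cell held between 24.3% and 37.2% of these Il1b UMIs in each PBMCsec library. In each vehicle library a single cell held between 39.0% and 62.7%, so the levels rest on few cells. The summed level of the 9 neutrophil markers in this class was lower after PBMCsec, 107, 52.6, 95.2 and 61.9 CPM, than after vehicle, 230, 391, 103 and 96.5 CPM, apart from PBMCsec library 1, which exceeded 2 vehicle libraries. The log2 fold change of Il1b in this class was 1.63 in the libraries numbered 1 and 2 alone and 0.28 in those numbered 3 and 4 alone.

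The remaining genes of DCs and macrophages were not called. Il1r2 gave 0.73, Il1rn 0.54, Il18 -0.24 and Il6ra -0.36 on the log2 scale. Il1rn was above 100 CPM in PBMCsec libraries 1 and 2 (131 and 128 CPM) and vehicle library 1 (128 CPM), and between 16.8 and 25.5 CPM in the other 5, so that high values occurred in both groups. In TCs, Il1r2 gave 0.90 and Il6ra -0.66 on the log2 scale, neither called. Il6ra in TCs had 52.7, 37.6, 20.6 and 12.0 CPM against 61.1, 57.7, 40.5 and 47.8 CPM. With library numbers as a replicate block, edgeR called 3 genes in TCs in place of 0. Il6ra then reached an unadjusted p of 0.0293 and an adjusted p of 0.758 by edgeR. The numbers met the pairing rule in TCs, but some libraries of unequal number were correlated there as well.

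All kept cells as 1 pool mix the classes in shares that differ between libraries. Il1b had 179, 801, 63.9 and 192 CPM in PBMCsec libraries 1 to 4 and 196, 383, 32.5 and 40.0 CPM in vehicle libraries 1 to 4. Neutrophils made up 2.85%, 11.2%, 0.528% and 3.16% of kept cells in the former and 3.31%, 7.21%, 0.362% and 0.369% in the latter, and the library with the highest Il1b of each group was the one with the most neutrophils. The log2 fold change of 0.93 became -0.15 without PBMCsec library 2. Ptx3 gave 2.24 (unadjusted p = 0.0328), Il6 2.72 (0.0761), Il18 0.70 (0.0461), Il1r1 0.44, Il1rn 0.24, Il1r2 0.18 and Il6ra -0.34 on the log2 scale, none of them called by edgeR. Leaving out PBMCsec library 1 gave 1.61 for Il6 and 1.66 for Ptx3, leaving out vehicle library 1 gave 4.38 for Il6, and leaving out PBMCsec library 2 gave 2.62 for Ptx3. The Il1b levels also depended on the cell filter. The cells that a lower gene limit added were not classed, so the part of neutrophils in this was not tested. With a minimum of 200 genes in place of 500, Il1b UMIs went from 1278 to 2304 in PBMCsec library 4 and from 274 to 556 in vehicle library 4, and the log2 fold change was 0.89.

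The wider pathway was read from lists of genes, given here as counts, since none of their genes was called by edgeR in any class. In FBs, 10 of the 16 stromal genes known to respond to IL-1 were measured, and 9 had a positive and 1 a negative fold change, 6 of them with an unadjusted p under 0.05, against 2.46% of all genes tested in FBs in either direction. Their median was 1.16 against 0.006 for all genes tested in FBs. The lists were chosen with earlier results of these data known, so the counts are descriptions. Cxcl1, Cxcl2, Ccl7, Tnfaip6 and Ptgs2 of this list were leading genes of FB cluster 19, with 58.0% of its cells from PBMCsec library 3. They are thus not independent of one another. Cxcl2, a chemokine for neutrophils, had 1012, 34.2, 588 and 28.1 CPM in PBMCsec libraries 1 to 4 and 24.9, 0, 27.9 and 23.3 CPM in vehicle libraries 1 to 4. PBMCsec libraries 1 and 3, the libraries with the most Il6 and Ptx3, were again far above the rest (log2 fold change of 4.20, SE 1.02, unadjusted p = 0.00122). Steap4, a metalloreductase, gave 1.68 and Tnfaip6, a hyaluronan-binding protein, -0.26.

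The receptors and signal transducers had medians nearer to 0 in FBs, and the difference between lists was not tested. Of the other IL-1 family genes 3 were measured, Il1rap at 0.24, Il1rl2 at 0.19 and Il33 at -0.52. Of 22 IL-1 signal transduction genes 14 were positive and 8 negative, with a median of 0.11 and examples in Rel (0.95), Nfkb2 (0.51), Tab1 (-0.23) and Ikbkb (-0.17). Of 14 genes of the IL-6 family and its signalling 7 were positive and 7 negative, 2 of the positive ones with an unadjusted p under 0.05, with Lifr at 0.97, Lif at 1.44, Tyk2 at -0.51 and Il6st, which encodes gp130, at -0.32. The 4 inflammasome genes measured were Casp1 (0.14), Gsdmd (0.03), Casp4 (-0.02) and Pycard (-0.63).

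In DCs and macrophages the gene with the smallest p of these lists was Socs3, the feedback inhibitor that STAT3 induces. It had 99.6, 122, 97.5 and 112 CPM in PBMCsec libraries 1 to 4 and 23.3, 27.4, 44.3 and 8.50 CPM in vehicle libraries 1 to 4. The groups did not overlap, which held in this direction for 1.46% of the 5620 genes tested. The log2 fold change was 1.95 (SE 0.354, unadjusted p = 7.148e-05, adjusted p = 0.1339 by edgeR), which is no call. All 6 stromal IL-1 response genes measured there were positive, 3 of them with an unadjusted p under 0.05 against 4.66% of all genes, with a median of 1.60 against -0.006 for all genes, among them Ccl7 at 3.24 (adjusted p = 0.2022 by edgeR) and Cxcl1 at 4.81. Of 19 IL-1 signal transduction genes 15 were positive, 2 of them with an unadjusted p under 0.05, and 4 negative, with Nfkbia, the NF-κB inhibitor, at 0.70, Ikbkb at 0.57, Tab2 at -0.07 and Irak4 at -0.19. Of the IL-6 genes 6 were positive, 2 of them (Socs3 and Lifr) with an unadjusted p under 0.05, and 4 negative, with Lifr at 1.10, Il6st at -0.23 and Ptpn11 at -0.28. Of 6 inflammasome genes 4 were positive, led by Casp4 at 0.56 and Gsdmd at 0.48, and 2 negative, Casp1 at -0.17 and Pycard at -0.34. Il1rl1, the single other IL-1 family gene measured, gave -0.25.

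Genes that rise when tissue is dissociated were followed beside these. Of 18 measured in FBs 9 were positive and 9 negative, 4 of the positive ones and 0 of the negative ones with an unadjusted p under 0.05, against 2.46% of all genes. Their median was -0.06, with Hspa1a at 1.67 and Hspa1b at 1.54 on one side and Dusp1 at -0.64 and Fosb at -0.58 on the other. Their summed level in FBs was 14770, 9355, 9803 and 6804 CPM in PBMCsec libraries 1 to 4 and 12380, 13530, 6354 and 6112 CPM in vehicle libraries 1 to 4. PBMCsec library 1, highest in Il6, was also the highest here, and vehicle libraries 1 and 2 stood above PBMCsec library 3. The part of dissociation in the Il6 values was not tested. In DCs and macrophages 8 of 18 were positive, 1 of them with an unadjusted p under 0.05, and 10 negative, with a median of -0.18, Ier3 at 1.17, Ier2 at 0.38, Egr1 at -0.72 and Jund at -0.36.

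The genes whose level across 12 cell classes was most like that of each gene were ranked by Pearson r of log2(mean CPM + 10), among 13202 genes. The nearest were Il1f9, Wfdc21 and 4933404K13Rik for Il1a (r = 0.998, 0.998 and 0.996), Themis2, Bcl2a1a and Nfam1 for Il1b (0.988, 0.973 and 0.969) and Gpr35, Arg2 and Mcemp1 for Il1rn (0.949, 0.946 and 0.932). They were Triqk, Sgtb and Wtip for Il1r1 (0.945, 0.919 and 0.918), Itln1, Ttll3 and Pnma1 for Il1r2 (0.912, 0.89 and 0.875) and Pid1, Wdfy2 and Hacd4 for Il18 (0.881, 0.873 and 0.865). For Il6 they were Zc4h2, Wdr86 and Arhgap6 (0.962, 0.961 and 0.955), for Il6ra Kcnk6, Cfp and C130026I21Rik (0.848, 0.79 and 0.789) and for Ptx3 Cthrc1, Lrrn4cl and Me3 (0.973, 0.97 and 0.963). The classes share libraries, and for Il1a (neutrophils) and for Il1r1 and Il6 (SMCs/PCs, 38 cells) the highest class holds few cells, so these are descriptions. The SMC/PC level of both Il1r1 and Il6 rests here on 1 library, PBMCsec 3, with 12 such cells. There 34 UMIs of Il6 gave 669 CPM, and 33 of them came from 1 cell. Of the genes like Il6, Zc4h2 and Wdr86 reached 19.7 and 39.3 CPM in that class. Of those like Il1r1, Triqk and Sgtb reached 39.3 and 19.7 CPM there. The r values of Il1r1 and Il6 thus hang on few cells.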

How the data were processed

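For each of 8 10x Genomics libraries, the authors deposited unnormalized counts of UMIs by gene and barcode. The submitters' processing notes name Cell Ranger 3.0.2 and mm10. A cell was kept with 500 to 4000 genes, no more than 20000 UMIs and no more than 5.0% of its counts mitochondrial (6150 of 26231 barcodes). Gm42418, Gm17056 and Gm26917 were dropped. Kept cells were integrated across libraries and clustered in Seurat 5.3.0 (R 4.3.3) with 2000 variable features that excluded the genes reported, 30 dimensions and a resolution of 1.0. A class name needed 3 or more listed markers, each present in 25% or more of the cluster's cells at 2-fold higher CPM, a rule set after the clusters were seen. Scrublet (scanpy 1.11.5) marked 18 cells (0.293%), which is too low a share to be trusted, so no doublet was removed.

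UMIs were added up by library within a class (10 cells or more). For neutrophils in the fit between classes the limit was 3 cells, chosen after the cells had been counted. edgeR 4.0.16 was then run with TMM factors, its default expression filter and quasi-likelihood F tests, and p-values were adjusted by Benjamini-Hochberg with a threshold of 0.05. As in the study, collagen transcripts (Col1a1, Col1a2, Col3a1) were dropped from classes other than FBs and keratin transcripts (Krt1, Krt5, Krt10, Krt14, with Krtdap) from classes other than KCs. The SE is the log2 fold change divided by the root of the F statistic. DESeq2 1.42.0 and limma 3.58.1 were alternatives. Exact permutation tests (scipy 1.17.1) were two-sided. The labels do not say that each library came from a mouse of its own, so p-values measure the spread between libraries. The tests were checked on simulated data. Gene positions are from GENCODE M21 and promoters from RefSeq. Kept cells held between 1105139 UMIs (vehicle library 1) and 12669272 UMIs (vehicle library 3). FBs held between 161935 UMIs (vehicle library 2) and 4424929 UMIs (PBMCsec library 3). These depths limit precision for genes with few counts.

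Equal library numbers were taken to pair libraries where each of the 4 correlations of deviations from the group mean exceeded 0.1. This held in TCs (0.319, 0.201, 0.187 and 0.385) and all kept cells (0.288, 0.296, 0.469 and 0.571). Unequal numbers were as alike in places, such as PBMCsec 4 and vehicle 3 (0.227 in TCs and 0.505 in all kept cells). In all kept cells, libraries 1 and 2 correlated positively with 1 and 2 of the other group and negatively with 3 and 4. Libraries 3 and 4 did the reverse, so these values do not single out pairs of equal number. The genes named were the 9 genes, the 2 list genes with the smallest p in each direction, and the 3 most alike by Pearson r. The 9 genes, the lists and the tests were chosen with earlier results of these data known.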

Additional observations from a re-analysis of the deposited data

Results flagged for a closer look

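In 3 of 52 groups of 4 libraries, 1 library stood far from the other 3, and chance alone does so in about 1 of 20 groups. Il6 over all kept cells was 19.6 CPM in vehicle library 1 against 1.16, 2.19 and 0.146 CPM in the other vehicle libraries. Of the 23 Il6 UMIs of vehicle library 1, 18 came from 1 cell among DCs and macrophages. Il1rn in DCs and macrophages was 128 CPM in vehicle library 1, from 33 UMIs in 3 cells, against 18.3, 23.8 and 25.5 CPM. Il6ra in KCs was 125 CPM in vehicle library 2 against 76.5, 71.8 and 69.1 CPM. Vehicle libraries 1 and 2 had the fewest kept cells, 151 and 208.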

How the results depend on the processing

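edgeR called 0 genes between PBMCsec and vehicle in each class, and other settings gave other counts. DESeq2 called 10 genes in all kept cells, 3 in TCs and 6 in DCs and macrophages. Without the filter on low counts 1 gene was called in KCs, 49 in TCs and 122 in DCs and macrophages. Libraries numbered 1 and 2 alone gave 6 in FBs, 9 in KCs and 8 in DCs and macrophages, and those numbered 3 and 4 alone gave 4 in TCs and 1 in DCs and macrophages. In DCs and macrophages limma called 1 and removal of the 5.0% of cells with the highest doublet score 2. Leaving out 1 library at a time gave 0 to 2 calls in TCs and 0 to 1 in DCs and macrophages. The causes were not tested. With library numbers as a replicate block, edgeR called 3 genes in TCs and 0 in all kept cells, which both met the pairing rule. In DCs and macrophages, where the numbers are only a shared number (correlations 0.316, 0.0894, 0.279 and 0.282), the block gave 4, and in FBs and KCs 0. Under the block no other call changed.

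Of 451 values of the 9 genes under an alternative, 1 passed the threshold, Il1b in DCs and macrophages without the filter, and 26 changed sign, in 13 of 26 results. Over leaving out 1 library the log2 fold changes of all kept cells ran from -0.19 to 0.63 for Il1r2, from -0.065 to 0.44 for Il1rn and from -0.15 to 1.82 for Il1b. In FBs they ran from -0.27 to 0.46 for Il1r2, from -0.39 to 0.0030 for Il6ra and from -0.092 to 0.58 for Il18, and in KCs from -0.51 to 0.15 for Il1r2 and from -0.28 to 0.021 for Il1r1. With the sign kept, they ran from 0.62 to 1.77 for Ptx3 and from 2.59 to 5.87 for Il6 in FBs, and from 1.66 to 2.62 and from 1.61 to 4.38 in all kept cells. In libraries 3 and 4 alone the sign turned for Il1r2 (-0.024), Il1rn (-0.23) and Il6ra (0.0078) in all kept cells, for Il1r1 in FBs (-0.026) and for Il1rn (-0.49) and Il6ra (0.0082) in DCs and macrophages. In libraries 1 and 2 alone it turned for Il18 (-0.019) and Il1r2 (1.46) in FBs. Il1r2 in FBs, close to 0, also turned under DESeq2 (0.10), the replicate block (0.15), the doublet score (0.055), a clustering resolution of 0.5 (0.048) and without cluster 19 (0.0085), where Ptx3 turned to -0.30. The FBs without cluster 19, the fit between classes and a minimum of 3 cells for neighbouring classes were chosen after seeing the data.

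Of 108 levels under an alternative, in FBs, KCs, TCs and DCs and macrophages only, 106 stayed within 1 SD of the main value. The SD is that between libraries, and the alternatives used mostly the same cells, so this count says little about how firm the levels are. Il1a passed no count filter, and Il6, Il18 in KCs and the levels of small classes are limited by their few UMIs.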

Other observations

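Barcodes over the mitochondrial limit, of which those up to 10% entered an alternative fit and none a main comparison, also held Il6 and Ptx3. Their Il6 level was 10.1, 23.0, 1.58 and 1.07 CPM in PBMCsec libraries 1 to 4 and 3.94, 0.863, 0.783 and 0.562 CPM in vehicle libraries 1 to 4. Their Ptx3 level was 39.9, 94.9, 38.2 and 4.97 CPM in PBMCsec libraries 1 to 4 and 165, 23.0, 9.13 and 3.87 CPM in vehicle libraries 1 to 4. The groups overlapped for both genes, and the highest Ptx3 value was that of vehicle library 1. Over all deposited barcodes, Ptx3 had 195.5, 98.55, 158.1 and 11.76 CPM in PBMCsec libraries 1 to 4. It had 206.3, 44.96, 23.77 and 8.067 CPM in vehicle libraries 1 to 4. Vehicle library 1 was again the highest, and of its 2864 Ptx3 UMIs 85 were in kept cells. With a mitochondrial limit of 10%, its Ptx3 UMIs went from 85 to 295 and its Il6 UMIs from 23 to 24. In PBMCsec library 2, Ptx3 UMIs then went from 41 to 436 and Il6 UMIs from 25 to 204.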
